A study of Mus musculus with 36 samples.

Results

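Old mouse liver late in regeneration was compared with old liver before it, using 6 of the study's 36 libraries chosen by age and time label. The 3 libraries of old liver before regeneration and the 3 of old liver at the time point labelled 120 all came from C57BL/6JN mice, an inbred laboratory strain, aged 18 months. The whole study held 12 groups of 3 libraries each, from young (4 months) and old mice at the labels before, 48, 72, 96, 120 and 240. The submitters labelled old age as the treatment. They gave no genotype, allele or drug for any group. The labels gave no unit for the time points and did not say how regeneration was brought about. The series text called the 3 libraries of a group biological replicates, without saying whether each came from a single animal. All 36 libraries entered the fit, so the gene filter and the estimate of spread behind each p-value drew on every group. Beyond that, young libraries at 120 and before, and old libraries at 240, served to place the old changes.

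When liver mass is lost, the remaining hepatocytes, which normally do not divide, enter the cell cycle, copy their DNA and divide while the organ keeps up blood sugar, plasma proteins and bile. Endothelial, stellate and immune cells follow, and the genes of division return to rest once mass is restored. Regeneration in aged rodent liver is known to begin later and to reach fewer cells at a time. Whole tissue was measured here, so fewer cells of a type and less RNA per cell cannot be told apart in any value.

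The deposited values were whole-number read counts per gene symbol from ribosomal-RNA-depleted total RNA. Totals ran from 4393173 to 4709507 counts in the old libraries before and from 2899527 to 4702471 at 120. Levels are given as CPM, read counts scaled to a common library size by the TMM method, and errors of levels are the SD of 3 libraries. Y-linked transcripts were found in 1 library of each group, old before replicate 1 and old 120 replicate 3, so each group mixed both sexes by this measure. Old before replicate 1 also stood apart in its low counts: it listed 1700 symbols at 0, against 5790 to 6225 in the other 5 libraries. Pancreatic acinar transcripts summed to 934.6 CPM in old 120 replicate 3 and to between 4.7 and 17.3 CPM in the other 5, and their part in the results was not tested. Removing the pancreatic genes left the number of called genes unchanged. No removed gene had been called, so that fit could hardly change the number. Hepatocyte markers were abundant in all 6 libraries: albumin (Alb) read 10940.3, 8144 and 8593 CPM before and 8027, 9301 and 6756 CPM at 120.

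Of 13436 genes tested with edgeR's quasi-likelihood test, 520 (3.87%) were called at 120 against before, 248 (1.85%) higher and 272 (2.02%) lower, at a Benjamini-Hochberg adjusted p under 0.05. The median change of all tested genes was -0.002 on the log2 scale. Scaling by total counts alone moved that median by 0.06 and the split to 287 higher and 182 lower. Among called genes the median size was 2.22-fold for those higher and 2.01-fold for those lower, and 150 and 139 of them passed 2-fold. The 6 values did not overlap between the groups for 235 of the 248 and 261 of the 272 called genes. Over all tested genes, 1441 (10.7%) were higher and 1458 (10.9%) lower without overlap. Counts for gene lists below are to be read beside these shares and beside the 1.85% called higher and 2.02% called lower. The count of calls rested on single libraries: it was 87 without old before replicate 3, 164 without old 120 replicate 1, 184 without old before replicate 2 and 263 without old 120 replicate 2. It was 596 without old 120 replicate 3 and 762 without old before replicate 1. All 520 genes kept their direction in each of these fits, which share most of the libraries in which the genes were chosen.

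**Figure D1:**
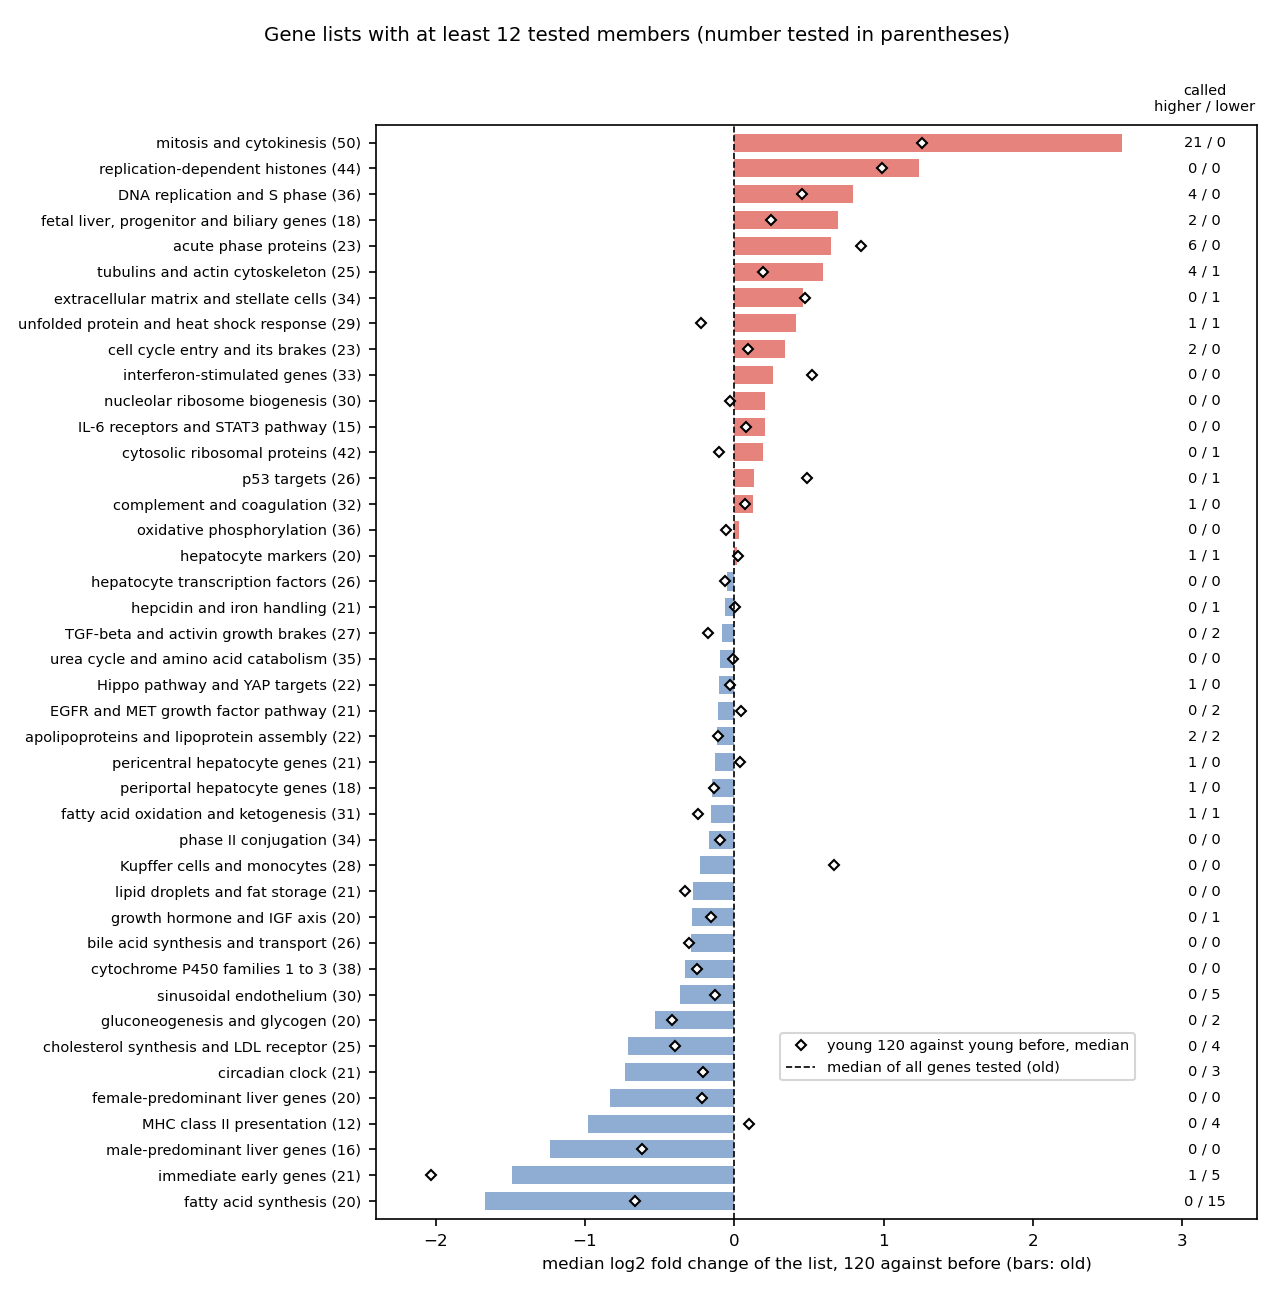
Median log2 fold change at 120 against before for the 42 gene lists with at least 12 tested members (bars, old liver; diamonds, young liver), with the number of members called higher and lower in old liver at the right and the median of all tested genes as a dashed line. Mitosis genes stand highest at 2.60 with 21 members called, and fatty acid synthesis genes lowest at -1.67 with 15 called.

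Of all the lists, mitosis had the most genes called higher. Of 50 tested genes of mitosis and cytokinesis, 21 were called higher and 0 lower, with a list median of 2.60 on the log2 scale. In 47 of the 50 genes all 3 libraries at 120 lay above all 3 before, as they did for 10.7% of all tested genes. The called genes act at several steps of division. Among them were cyclin A2 (Ccna2), the condensin subunits Ncapd2 and Smc4 that compact chromosomes, and the centromere proteins Cenpa, Cenpe and Cenpf. Also called were separase (Espl1), the kinase Ttk of the spindle checkpoint, and Cdc20 and Ube2c, which direct and carry out the destruction of cyclins.

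Promoters of these genes are shown first because they share short sequence words. Many mitotic genes are known to carry a CHR element (TTTGAA) near the start of transcription with CCAAT boxes upstream of it. RefSeq promoters on the build GRCm38.p6, each 250 bases before to 50 bases after a start, were matched by symbol for 16 of the 21 called mitosis genes. CCAAT on either strand was found in 14 of the 16 (87.5%), against 37.4% of 32851 promoters. The word TTTGAA on either strand was found in 13 (81.2%), against 17.9% of all promoters. Both words occurred together in 13 of 16 (81.2%), against 6.95% of all. The E2F-type words TTTCGCGC and TTTCCCGC were in 0 of the 16 promoters and TTTGGCGC in 1 (6.25%), against 0.323%, 1.07% and 0.514% of all promoters. The E-box CACGTG was in 2 (12.5%), against 7.15%. None of these words contains another, and all were searched on both strands. The 150 bases before the start of 4 of these genes are printed 5′ to 3′ along the gene's own strand, with CCAAT or ATTGG and TTTGAA or TTCAAA in capitals. Ube2c lies on chr2:164769779-164769928 (plus strand), Cdc20 on chr4:118437344-118437493 (minus), Espl1 on chr15:102296143-102296292 (plus) and Top2a on chr11:99024190-99024339 (minus).
Ube2c: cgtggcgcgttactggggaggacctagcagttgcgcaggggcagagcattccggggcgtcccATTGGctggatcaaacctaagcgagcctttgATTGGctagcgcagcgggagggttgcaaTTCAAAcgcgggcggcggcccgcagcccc
Cdc20: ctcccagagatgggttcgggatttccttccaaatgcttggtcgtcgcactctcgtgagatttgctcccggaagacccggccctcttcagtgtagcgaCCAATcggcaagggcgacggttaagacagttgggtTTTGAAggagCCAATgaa
Espl1: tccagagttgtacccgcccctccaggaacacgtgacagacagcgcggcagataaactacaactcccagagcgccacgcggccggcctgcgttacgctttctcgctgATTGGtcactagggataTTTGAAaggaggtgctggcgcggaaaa
Top2a: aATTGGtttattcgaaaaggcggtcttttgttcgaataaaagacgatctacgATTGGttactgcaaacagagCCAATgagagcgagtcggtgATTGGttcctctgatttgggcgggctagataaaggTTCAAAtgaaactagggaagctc
A match describes the letters in this window and shows no binding.

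Ube2c, whose promoter opens the set, read 0.470, 0.894 and 0.228 CPM before and 11.3, 11.8 and 7.78 CPM at 120. All 3 libraries at 120 were above every library before, and the change was 4.18 (SE 1.1) on the log2 scale, with an adjusted p of 0.0333. Cdc20, the activator of the anaphase-promoting complex, read 8.92, 2.46 and 0.684 CPM before and 59.0, 51.9 and 39.3 CPM at 120, a change of 3.64 (SE 0.98, adjusted p = 0.0373). Its highest library before was old before replicate 1, still far below the lowest at 120. Top2a, the topoisomerase that untangles sister chromatids, rose from 11, 8.71 and 3.42 CPM to 87.5, 53.8 and 31.3 CPM (log2 change 2.88, SE 0.81, adjusted p = 0.0441). Here too the groups did not overlap, with old 120 replicate 3 the lowest of the later libraries.

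Mki67, whose protein Ki-67 coats mitotic chromosomes and marks cycling cells, read 55.2, 84.2 and 31.3 CPM before and 591, 525 and 383 CPM at 120. The groups were apart by several fold in every pair of libraries, and the change was 3.13 (SE 0.81, adjusted p = 0.0299). Birc5, the chromosomal passenger protein survivin, went from 3.05, 2.23 and 2.97 CPM to 39.1, 26.1 and 20.3 CPM, a rise of 3.35 (SE 0.78, adjusted p = 0.0165). Ncapd2 had the smallest p of the list, with 7.75, 5.14 and 4.33 CPM before and 40.1, 20.0 and 18.8 CPM at 120 (2.18, SE 0.45, adjusted p = 0.00645). Smc4 rose by less, from 16.4 ± 2.48 to 49.4 ± 9.87 CPM (1.58, SE 0.38, adjusted p = 0.0174), and Ckap2, a microtubule-associated protein of the spindle, from 2.09 ± 2.33 to 23.3 ± 6.60 CPM (3.46, SE 0.81, adjusted p = 0.0170). Cyclin B1 (Ccnb1) and its kinase Cdk1, which drive entry into mitosis, did not pass the test: Ccnb1 read 0.622 ± 0.891 CPM before and 8.67 ± 5.07 CPM at 120 (adjusted p = 0.0504), and Cdk1 1.45 ± 0.388 and 5.54 ± 1.55 CPM (adjusted p = 0.185), each without overlap.

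**Figure D2:**
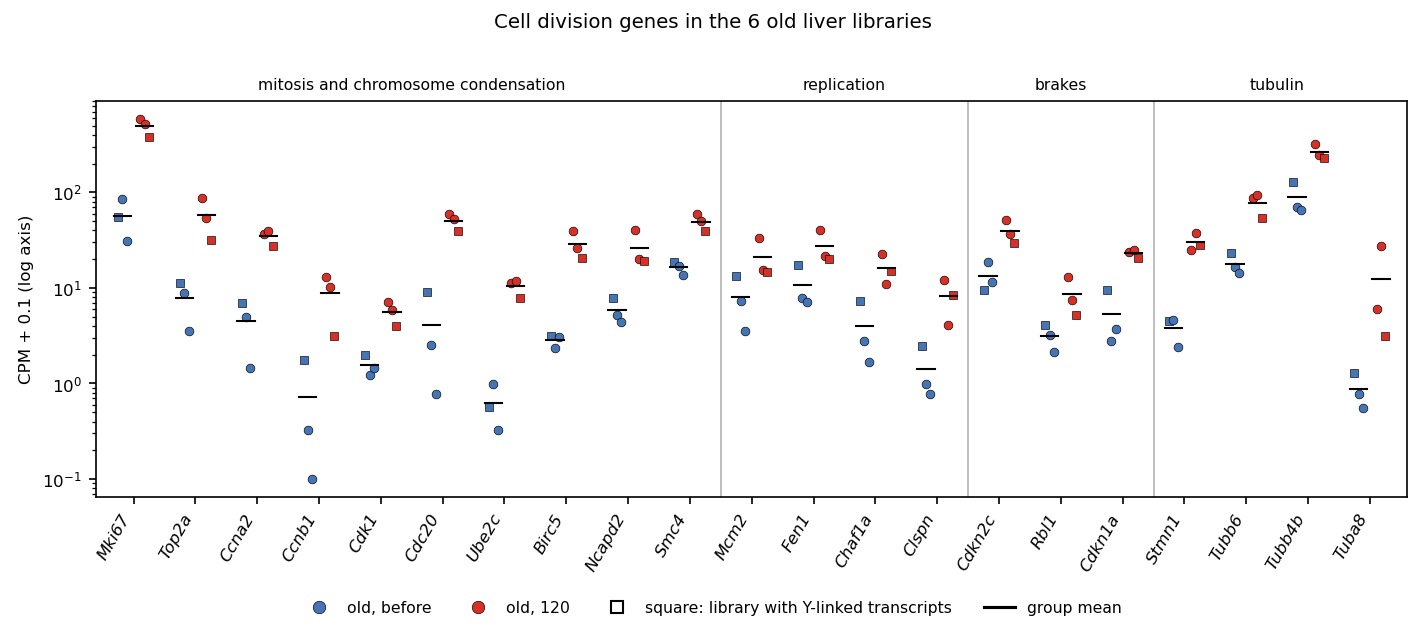
CPM plus 0.1 on a log axis for 21 genes of division in the 3 old libraries before (blue) and the 3 at 120 (red), with squares for the libraries that hold Y-linked transcripts and bars for group means. The mitosis genes shown do not overlap between the groups, and neither do Mcm2, Fen1 and Chaf1a, with a narrow gap for Mcm2 and Fen1.

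The number of called mitosis genes depended on single libraries more than the sizes did. It was 0 without old 120 replicate 1, 0 without old before replicate 3, 1 without old before replicate 2 and 7 without old 120 replicate 2, while the list median stayed between 2.27 and 3.20. Leaving out old before replicate 1 gave 22 calls and leaving out old 120 replicate 3 gave 24. The fit of the 18 old libraries alone called 1 mitosis gene, with a median of 2.62. In the pair of libraries with Y-linked transcripts the list median was 1.11 and 47 of 50 genes were higher at 120. In the other 4 libraries it was 2.42 and 48 were higher. For Mki67, Top2a and Ube2c the adjusted p was largest without old before replicate 3, at 0.176, 0.220 and 0.167.

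A minority of DNA replication genes passed the test, yet a larger share than of all genes. Of 36 tested, 4 were called higher and 0 lower, beside 1.85% of all tested genes called higher. The list median was 0.79, and 11 were higher without overlap, beside 10.7% of all tested genes. The 4 were Chaf1a and Chaf1b, which place histones on new DNA, Fen1, which trims Okazaki fragments, and Clspn (claspin), which couples the fork to its checkpoint. Chaf1a read 7.28, 2.68 and 1.60 CPM before and 22.5, 10.9 and 14.9 CPM at 120 (2.06, SE 0.56, adjusted p = 0.0373), and the groups did not overlap. Fen1 read 17.1, 7.82 and 7.07 CPM before and 40.1, 21.3 and 20.1 CPM at 120 (1.33, SE 0.36, adjusted p = 0.0358). Old before replicate 1 was the highest of its group for both genes. Clspn changed from 1.31 ± 0.906 to 8.09 ± 4.00 CPM (2.61, SE 0.71, adjusted p = 0.0373) and Chaf1b from 0.461 ± 0.241 to 2.34 ± 0.611 CPM (2.25, SE 0.57, adjusted p = 0.0229). Mcm2, a subunit of the replicative helicase, was not called, with 13.1, 7.15 and 3.42 CPM before and 32.8, 15.5 and 14.7 CPM at 120 (1.39, SE 0.53, adjusted p = 0.138).

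No replication gene was called without old 120 replicate 1, without old before replicate 2 or without old before replicate 3, and the median then ranged from 0.32 to 0.68. The list median was -0.09 in the pair of libraries with Y-linked transcripts and 0.83 in the other 4. Without both libraries of that pair 8 genes were called and the median was 1.25. Replication-dependent histones, which are made as DNA is copied and are kept in these libraries because they need no poly(A) tail, had a median of 1.24 with 24 of 44 tested genes higher without overlap and 0 called. Hist1h4k came closest, with 1.60 ± 0.887 CPM before and 5.74 ± 3.08 CPM at 120 (1.80, SE 0.58, adjusted p = 0.0753). Histone genes are near-identical copies, so reads may be split among them.

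Of 23 genes of cell cycle entry and its brakes, 2 were called, and both belong to the brakes. Cdkn2c encodes the inhibitor p18 of the cyclin D kinases, and Rbl1 the retinoblastoma relative p107. Cdkn2c read 9.39, 18.5 and 11.4 CPM before and 51.7, 36.7 and 29.5 CPM at 120 (1.57, SE 0.40, adjusted p = 0.0267), without overlap. Rbl1 rose from 3.06 ± 0.971 to 8.44 ± 4.03 CPM (1.43, SE 0.40, adjusted p = 0.0405). Each lost its call without old before replicate 3 and without old 120 replicate 1, where Cdkn2c had adjusted p of 0.143 and 0.132 and Rbl1 0.218 and 0.257. Cdkn2c was also not called without old 120 replicate 2 (0.0537) or old before replicate 1 (0.0703), nor Rbl1 without old 120 replicate 2 (0.0649) or old before replicate 2 (0.119). The p21 gene Cdkn1a, a p53 target that arrests the cycle, read 9.39, 2.68 and 3.65 CPM before and 23.9, 24.6 and 20.5 CPM at 120, all higher, but was not called (2.13, SE 0.73, adjusted p = 0.0982). Cdkn2a, the locus of p16 and Arf, had 4, 3 and 2 counts before and 3, 2 and 2 at 120, too few for the test. Ezh2, the methyltransferase of polycomb repression, read 5.88 ± 0.789 and 8.14 ± 3.13 CPM (adjusted p = 0.549).

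Stathmin and 3 tubulins were among the called genes. Of 25 genes of tubulin and the actin cytoskeleton, 4 were called higher and 1 lower, with a median of 0.59. Stmn1, the microtubule-destabilizing protein stathmin, read 4.46, 4.47 and 2.28 CPM before and 24.9, 37.7 and 28.2 CPM at 120, an 8.04-fold rise (3.01, SE 0.63, adjusted p = 0.00769). Tubb6, a beta-tubulin, went from 23.0, 16.3 and 14.4 CPM to 86.9, 93.5 and 53.4 CPM (2.12, SE 0.43, adjusted p = 0.00613). In both genes every library at 120 was above every library before, and both lost their call only without old before replicate 3, with adjusted p of 0.0790 and 0.0643. Tubb4b rose from 88.4 ± 35.8 to 265 ± 49.2 CPM (1.59, SE 0.39, adjusted p = 0.0224). Tuba8, an alpha-tubulin, read 5.97, 27.6 and 3.07 CPM at 120, so its change of 3.93 (SE 0.93, adjusted p = 0.0170) rested on old 120 replicate 2, without which its adjusted p was 0.157. It was also lost without old before replicate 2 (0.0830) and old before replicate 3 (0.112). Tubb4b reached 0.150 without old before replicate 3 and was lost without old before replicate 2 and old 120 replicate 1 as well. The called gene that fell, cytoplasmic actin Actg1, went from 44.4 ± 22.6 to 15.4 ± 6.95 CPM with overlap (-1.54, SE 0.43, adjusted p = 0.0426).

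Fatty acid synthesis had the most genes called lower of any list. The pathway turns citrate from sugar into fatty acids through Acly, the carboxylases Acaca and Acacb, the synthase Fasn, and the elongases and desaturases that finish the chain, under the control of the transcription factor SREBP-1 (Srebf1). Of 20 tested genes, 15 were called lower and 0 higher, 18 were lower without overlap and 0 had a positive change, and the median was -1.67. Between 10 and 15 were called lower whichever of the 6 libraries was left out, and 8 in the fit of the 18 old libraries alone. The median was -1.35 in the pair with Y-linked transcripts and -1.79 in the other 4 libraries.

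Fasn read 5609.9, 4092 and 5446 CPM before and 688, 859 and 962 CPM at 120. Its 3 later libraries lay close together and far below the earlier ones, a 6.04-fold fall (-2.59, SE 0.33, adjusted p = 3.81e-05). Acaca, the rate-limiting step, read 232, 197 and 243 CPM before and 80.2, 95.7 and 92.5 CPM at 120 (-1.32, SE 0.16, adjusted p = 1.89e-05). Elovl6, which lengthens palmitate, read 914, 975 and 2124 CPM before and 191, 229.6 and 232 CPM at 120 (-2.62, SE 0.37, adjusted p = 0.000169). Old before replicate 3 was the highest of its group, and the groups remained apart without it. Pklr, the liver pyruvate kinase that feeds carbon to the pathway, fell from 853, 777 and 853 CPM to 209.5, 77.4 and 191 CPM (-2.38, SE 0.35, adjusted p = 0.000317). These 4 genes were called whichever library was left out.

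Scd1, the desaturase that makes oleate, had the most uneven fall. It read 36407, 21605 and 31130.3 CPM before and 72.3, 1626 and 2769 CPM at 120, with old 120 replicate 1 far below the other 2 (-4.32, SE 1.01, adjusted p = 0.0170). Its adjusted p was 0.0575 without old 120 replicate 1, 0.0639 without old 120 replicate 2 and 0.0676 without old before replicate 3. Pnpla3, a lipase of lipid droplets, read 36.2, 66.6 and 88.3 CPM before and 2.32, 3.34 and 0.614 CPM at 120 (-5.01, SE 0.94, adjusted p = 0.00369). Thrsp (Spot 14), which promotes lipogenesis, fell from 1694 ± 524 to 168 ± 126 CPM (-3.33, SE 0.68, adjusted p = 0.00671), and was just past the threshold without old 120 replicate 1, at 0.0526. Srebf1 itself fell from 750.2, 668 and 567 CPM to 211, 257 and 349 CPM (-1.28, SE 0.30, adjusted p = 0.0166), with no overlap.

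**Figure D3:**
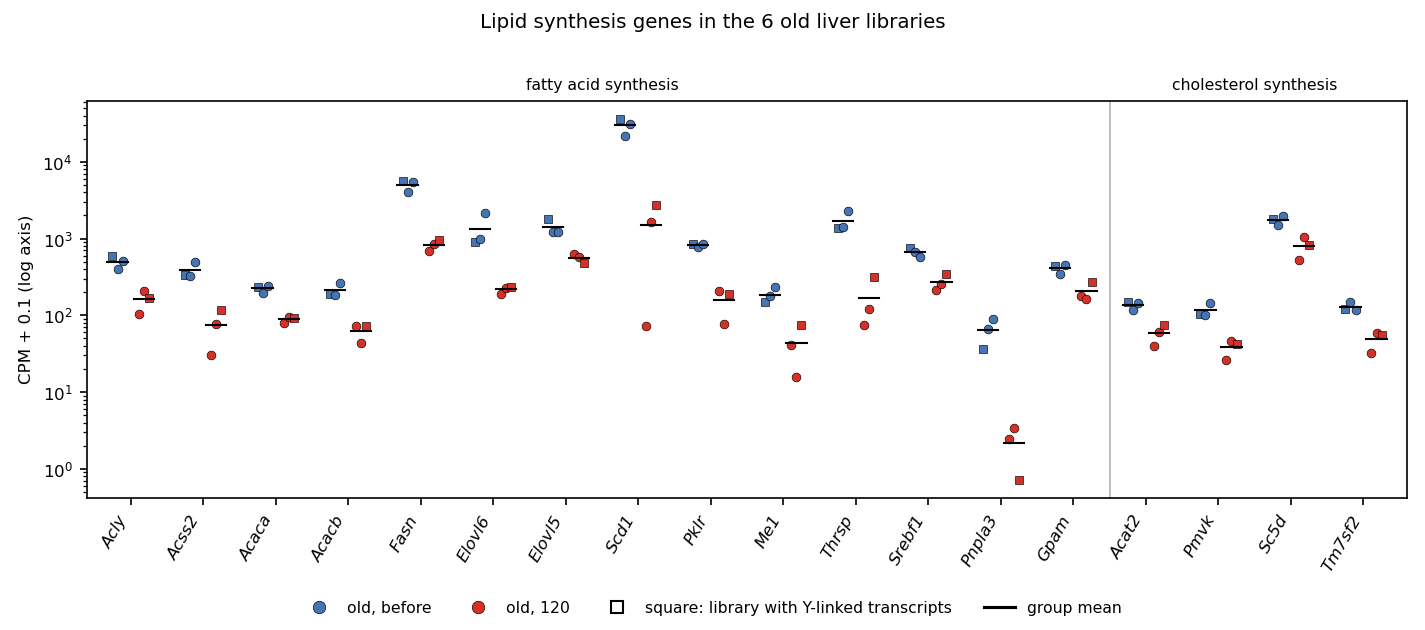
CPM plus 0.1 on a log axis for 14 fatty acid synthesis and 4 cholesterol synthesis genes in the 3 old libraries before (blue) and the 3 at 120 (red), with squares for the libraries that hold Y-linked transcripts and bars for group means. Every gene shown is lower in all 3 libraries at 120, and Scd1 spreads most at 120, from 72.3 to 2769 CPM.

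In cholesterol synthesis a minority of genes passed the test. Of 25 tested, 4 were called lower and 0 higher, 13 were lower without overlap, and the median was -0.71. Among all tested genes 2.02% were called lower and 10.9% were lower without overlap. The 4 were Acat2, which starts the chain, the mevalonate enzyme Pmvk and the late sterol enzymes Sc5d and Tm7sf2. Tm7sf2 read 120.0, 148 and 117 CPM before and 31.8, 58.9 and 54.8 CPM at 120 (-1.40, SE 0.26, adjusted p = 0.00252), and Acat2 149, 118 and 144 CPM before and 40.1, 61.3 and 74.3 CPM at 120 (-1.22, SE 0.24, adjusted p = 0.00440). Both were called with any library left out. Pmvk and Sc5d fell by 1.62 (SE 0.36, adjusted p = 0.0122) and 1.15 (SE 0.28, adjusted p = 0.0202) on the log2 scale, and neither was called without old 120 replicate 1 (adjusted p = 0.0816 and 0.136) or old before replicate 3 (0.0933 and 0.119).

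Among genes that burn fat few were called, beside 3.87% of all tested genes called in either direction. Of 31 genes of fatty acid oxidation and ketogenesis, 1 was called higher and 1 lower, with a median of -0.16. Cyp4a31, an omega-hydroxylase, read 3.05, 1.79 and 2.74 CPM before and 47.4, 29.5 and 8.39 CPM at 120 (3.45, SE 0.60, adjusted p = 0.00187), although reads of the closely related Cyp4a genes may be shared. Acaa1b, a peroxisomal thiolase, fell from 900.2 ± 293 to 233 ± 142 CPM (-1.95, SE 0.40, adjusted p = 0.00623), and its adjusted p was 0.0697 without old before replicate 3. No gene of 21 for lipid droplets was called, and Dgat2, which completes triglycerides, came closest (-0.75, SE 0.23, adjusted p = 0.0608).

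Among 22 apolipoproteins and lipoprotein assembly genes, 2 were called higher and 2 lower. Apoa4, a secreted apolipoprotein of triglyceride-rich particles, read 558, 333 and 276 CPM before and 5461, 2478 and 1084 CPM at 120, a 7.73-fold rise without overlap (2.95, SE 0.52, adjusted p = 0.00187). The later libraries spread from 1084 to 5461 CPM, yet the gene was called with any library left out. Apoc2, the activator of lipoprotein lipase, rose from 0.844 ± 0.368 to 4.74 ± 0.541 CPM (2.47, SE 0.50, adjusted p = 0.00535). Its level before lay near the floor of 3 counts, 0.686 CPM in those libraries, so the size of its rise is uncertain. Pltp, which moves phospholipid between particles, fell from 20.2 ± 3.10 to 5.64 ± 2.17 CPM (-1.85, SE 0.34, adjusted p = 0.00252). Mttp, which loads lipid onto apolipoprotein B, fell from 276 ± 9.57 to 179.9 ± 13.8 CPM (-0.61, SE 0.14, adjusted p = 0.0153), with an adjusted p of 0.0908 without old before replicate 3, 0.0688 without old 120 replicate 2 and 0.0679 without old 120 replicate 1.

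Sugar storage genes included the deepest fall of all. Ppp1r3g, which brings protein phosphatase 1 to glycogen after feeding, read 44.6, 79.3 and 276 CPM before and 0.995, 1.82 and 0 CPM at 120 (-7.29, SE 0.91, adjusted p = 6.14e-05). The groups were far apart, and the call held with any library left out. Of 20 genes of gluconeogenesis and glycogen, it was 1 of 2 called lower, beside 0 called higher, with a list median of -0.53. The other, liver glycogen phosphorylase Pygl, fell from 461, 401 and 423 CPM to 247, 240.2 and 344 CPM (-0.63, SE 0.18, adjusted p = 0.0455), and was called only without old 120 replicate 3 among the fits with 1 library left out, where the largest adjusted p was 0.189.

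Immediate early genes are switched on within minutes of a stimulus or of handling. Of 21 tested, 5 were called lower and 1 higher, with a list median of -1.49. Zfp36 (tristetraprolin), which destroys inflammatory messages, had the smallest p of all 13436 genes: it read 193, 218 and 390.1 CPM before and 40.8, 43.7 and 60.2 CPM at 120 (-2.46, SE 0.28, adjusted p = 1.76e-05). Dusp1, a phosphatase that shuts off stress kinases, read 157, 172 and 235 CPM before and 22.2, 31.3 and 20.7 CPM at 120 (-2.93, SE 0.53, adjusted p = 0.00278). Both were without overlap and called with any library left out. Jun read 327, 374 and 811 CPM before and 130.0, 117 and 70.4 CPM at 120 (-2.25, SE 0.48, adjusted p = 0.00899), and Fos 13.6, 32.2 and 127 CPM before and 7.29, 4.56 and 4.09 CPM at 120 (-3.46, SE 0.77, adjusted p = 0.0122).

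Old before replicate 3 was the highest library for each of Zfp36, Dusp1, Jun and Fos. Without it the list median was -0.60, 2 members were called lower, and Jun and Fos had adjusted p of 0.105 and 0.182. Fos also had an adjusted p of 0.0549 without old 120 replicate 2. The gene that rose was Ier5, from 18.5 ± 1.00 to 40.2 ± 13 CPM (1.11, SE 0.30, adjusted p = 0.0339), and no immediate early gene was called higher when any library other than old 120 replicate 3 was left out. Gdf15, a stress hormone on the list of p53 targets, was the only called gene of 26 there and fell from 39.9, 51.2 and 75.7 CPM to 9.95, 4.56 and 9.0 CPM (-2.82, SE 0.58, adjusted p = 0.00654), with an adjusted p of 0.0551 without old before replicate 3. Handling time of the tissue is not in the labels, and its part was not tested.

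Genes of the circadian clock had a list median of -0.73, and 3 of 21 were called lower and 0 higher. Bhlhe40 (DEC1), a repressor within the clock, read 593, 678 and 536 CPM before and 213, 156 and 210.2 CPM at 120 (-1.64, SE 0.29, adjusted p = 0.00187) and was called with any library left out. Hlf, an output factor, fell from 164 ± 32.0 to 81.2 ± 30.4 CPM (-1.01, SE 0.23, adjusted p = 0.0135). Wee1, a clock-driven kinase that holds back mitosis, fell from 27.6 ± 6.33 to 11.3 ± 6.02 CPM (-1.26, SE 0.35, adjusted p = 0.0417). Hlf and Wee1 lost their calls in most fits with 1 library left out, reaching 0.10 and 0.224 without old before replicate 3. The list median was -0.02 in the pair with Y-linked transcripts and -1.12 in the other 4 libraries, and 8 members were called lower without old 120 replicate 3. The hour of sampling is not in the labels, so a difference in it cannot be told apart from one in regeneration.

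Acute phase proteins are made by hepatocytes in response to IL-6 and injury. Of 23 tested, 6 were called higher and 0 lower, the median was 0.65, and 5 were higher without overlap. Among all tested genes 1.85% were called higher and 10.7% were higher without overlap. Lcn2 (lipocalin 2), an iron-sequestering protein, read 35.7, 16.8 and 5.48 CPM before and 324, 388 and 132 CPM at 120, a 14.5-fold rise (3.86, SE 0.80, adjusted p = 0.00697). Orm2, an orosomucoid, read 47.4, 43.6 and 32.4 CPM before and 169, 546 and 165 CPM at 120 (2.83, SE 0.62, adjusted p = 0.0105). Both were without overlap, and Orm2 was highest in old 120 replicate 2. Apcs (serum amyloid P) read 203 ± 141 and 903 ± 659.6 CPM (2.16, SE 0.56, adjusted p = 0.0287), and Hpx (hemopexin) 1682 ± 1112 and 3926 ± 1312 CPM with overlap (1.22, SE 0.33, adjusted p = 0.0328). The complement protein C3 rose from 6793 ± 971 to 12228 ± 3587 CPM (0.85, SE 0.24, adjusted p = 0.0423), as the 1 called of 32 complement and coagulation genes. That count was 4 without old before replicate 1 and 6 with old 120 replicate 3 left out as well.

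The acute phase values leaned on particular libraries. The list median was -0.10 in the pair with Y-linked transcripts and 1.04 in the other 4 libraries. It fell to 0.21 with 1 call without old 120 replicate 2, and there were 2 calls without old 120 replicate 1, 1 without old before replicate 2 and 0 without old before replicate 3. Leaving out both libraries of the pair gave 12 calls. Lcn2 had an adjusted p of 0.0699 without old before replicate 3, and Orm2 of 0.0695 without old 120 replicate 2, 0.0505 without old before replicate 2 and 0.0839 without old before replicate 3. Apcs and Hpx were called in 2 of the 6 fits with 1 library left out, those without old before replicate 1 and old 120 replicate 3, and reached 0.177 and 0.216 without old before replicate 3. C3 was called only without old 120 replicate 3, and its adjusted p reached 0.162 without old 120 replicate 2. Lcn2 is also a neutrophil gene, and it was the 1 called of 8 tested neutrophil markers.

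Most genes of hepatocyte identity and function gave no call. No gene was called of 26 hepatocyte transcription factors (median -0.05), 38 cytochromes P450 of families 1 to 3 (-0.33), 34 phase II enzymes (-0.17), 35 genes of the urea cycle and amino acid breakdown (-0.10), 26 of bile acid synthesis and transport (-0.29), 36 of oxidative phosphorylation (0.03) or 30 of nucleolar ribosome biogenesis (0.21). The lowest p in these lists belonged to Nr1h4, the bile acid receptor FXR (-0.53, SE 0.18, adjusted p = 0.0922), Cyp2d22 (-0.44, SE 0.15, adjusted p = 0.102), the sulfotransferase Sult1c2 (-1.73, SE 0.54, adjusted p = 0.0635), Haao of tryptophan breakdown (-0.74, SE 0.23, adjusted p = 0.0619), the bile acid transporter Slc10a1 (-1.11, SE 0.36, adjusted p = 0.0752), Sdha of the respiratory chain (-0.45, SE 0.15, adjusted p = 0.0820) and Rrp12 of the small ribosomal subunit (1.22, SE 0.38, adjusted p = 0.0617). The medians of 3 of the metabolic lists had opposite signs in the libraries with and without Y-linked transcripts. In the pair with them the medians were 0.25 for phase II, 0.24 for bile acid and 0.31 for cytochrome P450 genes, and in the other 4 libraries -0.58, -0.68 and -0.44. Without old 120 replicate 3 the phase II median was -0.63 with 1 gene called in each direction. The bile acid median was then -0.65 with 2 called lower, and 5 were called lower with old before replicate 1 left out as well. Albumin changed by -0.20 (SE 0.22, adjusted p = 0.682). Of 42 cytosolic ribosomal protein genes only Rpl22 was called, and it fell from 92.6 ± 9.91 to 54.4 ± 6.49 CPM (-0.77, SE 0.18, adjusted p = 0.0140). Its call was lost without old before replicate 3 (0.112) and without old 120 replicate 1 or 2.

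Genes of the zones around the central and portal veins gave 1 call each. Slc13a3, a dicarboxylate transporter on the pericentral list, read 21.6, 26.6 and 11.6 CPM before and 152, 87.5 and 66.9 CPM at 120 (2.35, SE 0.58, adjusted p = 0.0232), with an adjusted p of 0.148 without old before replicate 3, 0.117 without old 120 replicate 1 and 0.0589 without old before replicate 2. The periportal call was Apoa4, given above. Calls among 29 genes of the unfolded protein and heat shock response depended on the libraries: 1 was higher with all, 9 without old before replicate 1, 4 without old 120 replicate 3, 9 without both and 11 among libraries without Y-linked transcripts. With all libraries Pdia6, a folding enzyme, was called higher (0.94, SE 0.27, adjusted p = 0.0453) and Herpud1, which aids removal of misfolded proteins, lower. Herpud1 read 358, 352 and 551 CPM before and 154, 189 and 181 CPM at 120 (-1.27, SE 0.24, adjusted p = 0.00329), with an adjusted p of 0.0596 without old before replicate 3. Pdia6 was called in 2 of the 6 fits with 1 library left out and reached 0.251 without old before replicate 3. No gene was called of 16 male-predominant and 20 female-predominant liver genes, whose medians were -1.23 and -0.83. These medians moved with the libraries that hold Y-linked transcripts. The male-predominant median turned to 2.18, with 1 gene called higher, without old before replicate 1, was -3.16 without old 120 replicate 3 and was 0 without both. The female-predominant median was -1.38, -0.26 and -0.82 in the same 3 fits. Acot3, of the female-predominant list, read 5.17, 751 and 655 CPM before and 61.3, 20.3 and 3.48 CPM at 120 (adjusted p = 0.155), with the low value before in the library that holds Y-linked transcripts.

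Antigen presentation genes of MHC class II are carried by dendritic cells, B cells and activated macrophages. Of 12 tested, 4 were called lower and 0 higher, 7 were lower without overlap, and the median was -0.98. The shares of all tested genes were 2.02% called lower and 10.9% lower without overlap. H2-Ab1 read 42.7, 63.0 and 31.9 CPM before and 11.6, 14.6 and 11.5 CPM at 120, a 3.66-fold fall (-1.87, SE 0.35, adjusted p = 0.00271) that was called with any library left out. Cd74, the invariant chain, read 91.1, 103 and 57.5 CPM before and 16.9, 27.0 and 20.7 CPM at 120 (-1.96, SE 0.44, adjusted p = 0.0134). In both genes the 3 later libraries lay together below all earlier ones. H2-Aa fell by 1.82 (SE 0.42, adjusted p = 0.0146) and H2-Eb1 by 1.41 (SE 0.36, adjusted p = 0.0241) on the log2 scale. With 1 library left out, 1 to 4 of the 12 were called. Each of Cd74, H2-Aa and H2-Eb1 lost its call without old 120 replicate 1 (adjusted p = 0.0731, 0.0926 and 0.0679) and without old before replicate 2 (0.0594, 0.0886 and 0.160). H2-Aa also lost it without old 120 replicate 2 (0.0528), and H2-Eb1 in every such fit but that without old before replicate 1.

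Other markers of the cells that carry class II gave no call. The 28 tested Kupffer cell and monocyte genes had 0 calls and a median of -0.23, and 0 of 9 tested T, B and NK cell genes were called. Cd79b, a subunit of the B cell receptor, came closest of these 9, with 6.10, 8.49 and 3.19 CPM before and 2.98, 0.304 and 3.48 CPM at 120 (-1.34, SE 0.53, adjusted p = 0.151). Cd9, a membrane tetraspanin, came closest among the Kupffer cell and monocyte genes, at 26.5 ± 9.08 and 49.6 ± 9.01 CPM (0.90, SE 0.27, adjusted p = 0.0540). None of 33 interferon-stimulated genes was called, and their median was 0.26. It turned to -0.50 without old 120 replicate 3. In the pair with Y-linked transcripts it was 0.62, with 30 of 33 above 0, and in the other 4 libraries -0.19, with 13 above 0.

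A minority of sinusoidal endothelial genes passed the test. Of 30 tested, 5 were called lower and 0 higher, 10 were lower without overlap, and the median was -0.36. The shares of all tested genes were 2.02% called lower and 10.9% lower without overlap. The called genes with the smallest p were Fcgr2b, an Fc receptor that clears immune complexes, Ptprb, a phosphatase of vessel walls, the mannose receptor Mrc1 and Oit3. Fcgr2b read 48.1, 68.4 and 96.7 CPM before and 38.8, 33.7 and 39.5 CPM at 120 (-0.93, SE 0.21, adjusted p = 0.0122). Mrc1 read 83.8, 127 and 103 CPM before and 48.4, 61.7 and 58.7 CPM at 120 (-0.89, SE 0.22, adjusted p = 0.0189). Ptprb and Oit3 each fell by 0.74 on the log2 scale (SE 0.18 and 0.20, adjusted p = 0.0170 and 0.0377). All 4 were without overlap. The median was -0.12 in the pair with Y-linked transcripts, with 11 of 30 above 0, and -0.51 in the other 4 libraries. No endothelial gene was called without old before replicate 3, where the median was -0.26, and 1 was called without old 120 replicate 1, old 120 replicate 2 or old before replicate 2.

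Stellate cell and matrix genes had a median of 0.46, with 26 of 34 above 0, 0 called higher and 1 called lower. Col1a1, the chief fibrillar collagen and chosen after its values were seen, read 7.23 ± 2.18 CPM before and 26.3 ± 5.70 CPM at 120 without passing the test (1.87, SE 0.72, adjusted p = 0.140). Ecm1, which holds TGF-beta in its latent form, read 98.1, 156 and 139.9 CPM before and 75.3, 66.2 and 55.0 CPM at 120 (-1.01, SE 0.19, adjusted p = 0.00307), and was called with any library left out. No bile duct, adipocyte, red cell, platelet or islet marker was called, among 7, 8, 6 and 2 tested (red cell and platelet counted together). Of 39 pancreatic acinar markers 4 were tested and 0 called; Ctrl read 56.5 CPM in old 120 replicate 3 and between 1.21 and 2.51 CPM elsewhere.

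Growth signals had few called genes in each list, to be read beside the 1.85% of all tested genes called higher and the 2.02% called lower. In the EGFR and MET pathway, through which EGF and HGF drive hepatocyte division, 2 of 21 genes were called lower and 0 higher: Sos1, the exchange factor that activates RAS, fell from 171, 175 and 155 CPM to 98.5, 108 and 121 CPM (-0.61, SE 0.12, adjusted p = 0.00383), and the adaptor Gab1 from 51.6 ± 13.5 to 30.4 ± 4.55 CPM (-0.76, SE 0.22, adjusted p = 0.0460). Sos1 was called with any library left out, and Gab1 in 1 of the 6 such fits, with an adjusted p of up to 0.267. Among 27 genes of the TGF-beta and activin pathway, which restrains growth, Smad2 fell by 0.48 (SE 0.13, adjusted p = 0.0385) and the inhibitory Smad7 by 0.82 (SE 0.23, adjusted p = 0.0431) on the log2 scale. Neither was called without old before replicate 3 (adjusted p = 0.101 and 0.225), old before replicate 2 (0.204 and 0.160) or old 120 replicate 1 (0.218 and 0.0672), and Smad7 was called only without old before replicate 1. In the Hippo pathway, 1 of 22 was called: Ajuba, a scaffold that restrains the LATS kinases, rose from 16.0, 17.6 and 16.4 CPM to 33.5, 28.9 and 43.8 CPM (1.09, SE 0.25, adjusted p = 0.0141), with an adjusted p of 0.0790 without old before replicate 3 and 0.0566 without old 120 replicate 3. Igfbp3, a carrier of insulin-like growth factors, was the 1 called of 20 genes of its axis (-1.40, SE 0.40, adjusted p = 0.0438), and reached 0.208 without old 120 replicate 1, with a call in 1 of the 6 such fits. Egfr, the EGF receptor itself and chosen after its values were seen, read 1724, 160.4 and 159.9 CPM before and 913, 1252 and 1130.2 CPM at 120 (0.69, SE 0.61, adjusted p = 0.588). Old before replicates 2 and 3 were its lowest libraries, and the groups overlapped through old before replicate 1. No gene of 15 for the IL-6 and STAT3 pathway was called, and Pim3 read 178 ± 113 and 84.3 ± 9.74 CPM (adjusted p = 0.160).

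Hamp2, the second hepcidin gene, was the 1 called of 21 iron genes, and its groups overlapped. It read 1.17, 76.4 and 96.7 CPM before and 0, 4.25 and 1.23 CPM at 120 (-4.99, SE 1.40, adjusted p = 0.0441). The low value before was that of the library with Y-linked transcripts, and the gene kept its call only in the fit without that library among the 6 fits with 1 left out.

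Genes of fetal liver and progenitor cells had a median of 0.69, and 17 of 18 were above 0, but only H19 and Ddr1 were called. H19, an imprinted noncoding RNA of fetal liver, read 3.05, 2.46 and 1.60 CPM before and 52.7, 380.2 and 9.21 CPM at 120 (5.94, SE 1.51, adjusted p = 0.0267). Old 120 replicate 2 stood far above the other 2, and without it the change was still upward with an adjusted p of 0.177. The call was also lost without any 1 of the libraries before (0.0530, 0.112 and 0.148 for replicates 1 to 3). Ddr1, a collagen receptor of biliary and progenitor cells, rose from 1.69 ± 0.687 to 7.15 ± 1.98 CPM (2.06, SE 0.39, adjusted p = 0.00307). Afp, the fetal counterpart of albumin, read 10.8, 15 and 18.5 CPM before and 20.9, 14 and 13.3 CPM at 120, with overlap (0.11, SE 0.47, adjusted p = 0.928), and its sign turned when old 120 replicate 1 (-0.11) or old before replicate 1 (-0.04) was left out.

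Several of the largest single changes lay outside these pathways. Ly6d, a surface protein of the Ly6 family, read 5.40, 4.47 and 1.14 CPM before and 111, 43.7 and 87.6 CPM at 120, a 21.9-fold rise without overlap (4.45, SE 0.85, adjusted p = 0.00440). It was the 1 called of 8 tested mesothelium and gallbladder markers, and its adjusted p lay just above the threshold without old before replicate 3. Igdcc4, an immunoglobulin-family membrane protein, read 1.41, 0.447 and 0 CPM before and 37.5, 38.3 and 2.46 CPM at 120 (5.32, SE 1.11, adjusted p = 0.00714), with old 120 replicate 3 far below the other 2 and an adjusted p of 0.0699 without old before replicate 3. Ttc39aos1, an RNA antisense to Ttc39a, rose from 0.313 ± 0.542 to 6.08 ± 1.63 CPM (4.2, SE 0.71, adjusted p = 0.00154); the use of strand is not given in the sources used here, so its reads cannot be told apart from those of its partner.

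Miox, the kidney-type enzyme that breaks down inositol, had 0 counts in all 3 libraries before and read 3.65, 1.21 and 1.23 CPM at 120, at least 2.96-fold higher when each library before is set to the floor of 3 counts (adjusted p = 0.0202). Depdc1b had 2 counts before and 48 at 120, a ratio of 28.1 with a 95% exact counting interval from 7.38 to 239 (adjusted p = 0.0105). Aunip, a partner of the mitotic kinase Aurora A, had 1 count before and 24 at 120, a ratio of 28.1 with an interval from 4.59 to 1.16e+03 (adjusted p = 0.0180). Such intervals cover counting error only. Without old before replicate 3 the adjusted p of Miox was 0.0982 and that of Aunip 0.113, and without old 120 replicate 1 that of Depdc1b was 0.0793.

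Rgs16 and Rgs8, which switch off G protein signals, both fell. Rgs16 read 616, 772 and 942 CPM before and 81.9, 0.607 and 4.09 CPM at 120 (-4.78, SE 1.17, adjusted p = 0.0223). All later libraries were lower, but they ranged from 0.607 to 81.9 CPM, and the adjusted p reached 0.0839 without old before replicate 3. Rgs8 read 2.11, 3.57 and 5.48 CPM before and 0 in all 3 libraries at 120, at least 4.43-fold lower by the floor of 3 counts (adjusted p = 0.00444). Mup15 likewise went from 3.84 ± 2.30 CPM to 0 in all 3, at least 4.57-fold lower (adjusted p = 0.0237), although major urinary proteins are near-identical and may share reads. Phgdh, the first enzyme of serine synthesis, had 107 counts before and 2 at 120, a ratio of 45.6 with an interval from 12.3 to 381 (adjusted p = 0.00882). Slc2a4, the insulin-responsive glucose transporter GLUT4, had 55 and 2 counts, a ratio of 23.4 with an interval from 6.19 to 198 (adjusted p = 0.0220). Mup15 and Phgdh reached 0.0800 and 0.0548 without old 120 replicate 1, and Slc2a4 0.106 without old before replicate 3.

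Across the 24 named genes called with each of the 6 libraries left out, both directions were present, among them Fasn, Acaca, Elovl6, Pklr, Zfp36, Dusp1, H2-Ab1, Ecm1 and Sos1 lower and Apoa4, Apoc2, Ddr1, Cyp4a31 and Ttc39aos1 higher. Of the 86 named genes that were called, 58 were not called without old before replicate 3, 45 without old 120 replicate 1, 38 without old before replicate 2, 32 without old 120 replicate 2, 10 without old 120 replicate 3 and 8 without old before replicate 1.

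Young liver at 120 was set beside old liver to see which of these changes differ with age. In young liver 29 genes (0.216%) were called higher and 49 (0.365%) lower at 120 against before. The difference between the old and young changes was tested directly, and 1 gene of 13436 (0.00744%) was called, Ablim3, with 926 genes at an unadjusted p under 0.05. Ablim3, an actin-binding LIM protein, read 18.5, 21.7 and 22.6 CPM in old liver before and 45.1, 50.1 and 45.2 CPM at 120, a tight rise without overlap (1.16, SE 0.20, adjusted p = 0.00170). In young liver its mean went from 49.5 to 29.3 CPM (-0.75, SE 0.20, adjusted p = 0.0795), and the difference between the changes was 1.91 (SE 0.28, adjusted p = 0.00283). The next smallest p belonged to Hip1r, which links clathrin to actin: it rose from 52.8 ± 3.97 to 111 ± 13.9 CPM in old liver (1.07, SE 0.19, adjusted p = 0.00174) and changed by -0.23 (SE 0.19) in young, a difference of 1.30 (SE 0.26, adjusted p = 0.215). Slc2a4 and Ttn, the giant sarcomere protein, had differences of -5.93 (SE 1.32) and -7.23 (SE 1.65), each with an adjusted p of 0.501. Ttn averaged 523 CPM in young liver at 120 and 10.3 CPM in young liver before, against 7.29 ± 2.06 and 21.5 ± 5.46 CPM in old liver.

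**Figure D4:**
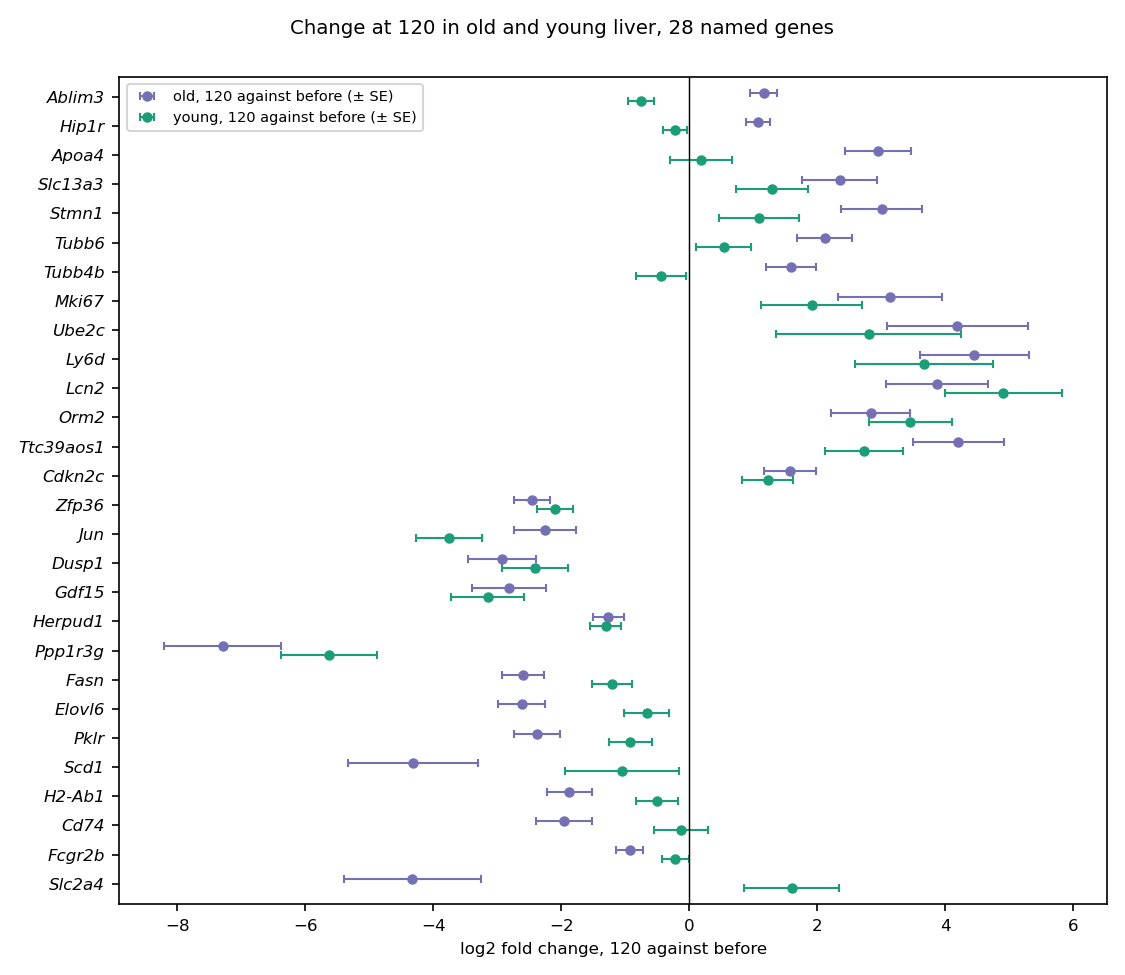
Log2 fold change at 120 against before, with its SE, for 28 named genes in old and young liver from the same fit. Most points of both ages lie on the same side of 0, the lipid synthesis genes lie farther left in old liver, and Ablim3 lies to the right in old and to the left in young.

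For the gene groups the 2 ages are given side by side, since 0 members of any list were called for the difference. Mitosis genes had a median change of 2.60 in old and 1.26 in young liver, with 21 and 0 called. Fatty acid synthesis genes had -1.67 and -0.66, with 15 and 0 called lower. For Fasn the change was -2.59 (SE 0.33) in old and -1.21 (SE 0.31) in young, a difference of -1.39 (SE 0.44, adjusted p = 0.577). MHC class II genes had medians of -0.98 and 0.10, and for Cd74 the difference between ages was -1.83 (SE 0.61, adjusted p = 0.585). Immediate early genes had -1.49 and -2.03, with 5 and 9 called lower, and acute phase genes 0.65 and 0.85. Kupffer cell and monocyte genes had -0.23 in old and 0.67 in young liver, with 0 called in either. Of the 248 genes called higher in old liver, 207 (83.5%) had a positive change in young liver, against 51.6% of all tested genes, and 10 were called there. Of the 272 called lower, 250 (91.9%) had a negative change in young liver, against 48.4% of all, and 25 were called. The median change in young liver was 0.47 for the first set and -0.40 for the second, beside 1.15 and -1.01 in old liver, where the sets were chosen.

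Old liver at 240 was compared with old liver at 120 to see which levels had moved on. Between these labels 12 genes (0.0893%) were called higher and 16 (0.119%) lower. Fatty acid synthesis supplied 5 of the 12: Fasn, Elovl6, Acaca, Pklr and Thrsp. Fasn averaged 3018 CPM at 240, a rise from 120 of 1.85 (SE 0.32, adjusted p = 0.00975), Elovl6 1004 CPM (2.21, SE 0.37, adjusted p = 0.00975) and Thrsp 1579.6 CPM (3.23, SE 0.68, adjusted p = 0.0407). Apoa4 fell to 411 CPM (-2.87, SE 0.52, adjusted p = 0.0145) and Ocstamp, a membrane protein known from osteoclast fusion, from 7.75 ± 1.95 to 1.41 CPM (-2.32, SE 0.50, adjusted p = 0.0415). Ocstamp had risen at 120 from 2.82, 0.670 and 0.228 CPM to 9.61, 7.90 and 5.73 CPM (2.61, SE 0.51, adjusted p = 0.00425). No mitosis gene was called between 120 and 240, and the list median was -1.77; Mki67 averaged 115 CPM at 240 (-2.12, SE 0.78, adjusted p = 0.257). These counts were unstable: 0 genes were called without old 120 replicate 1 or without old 120 replicate 2, and 197 without old 120 replicate 3. At 240 against before, 2 of the 248 genes higher at 120 and 14 of the 272 lower were still called, where 2 (0.0149%) of all tested genes were called higher and 19 (0.141%) lower, 21 in all (0.156%). The comparisons at 120 and at 240 against before share the libraries before. Those of 120 against before and of 240 against 120 share the libraries at 120. Part of a return at 240 in genes chosen by their change at 120 can therefore come from that choice.

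**Figure D5:**
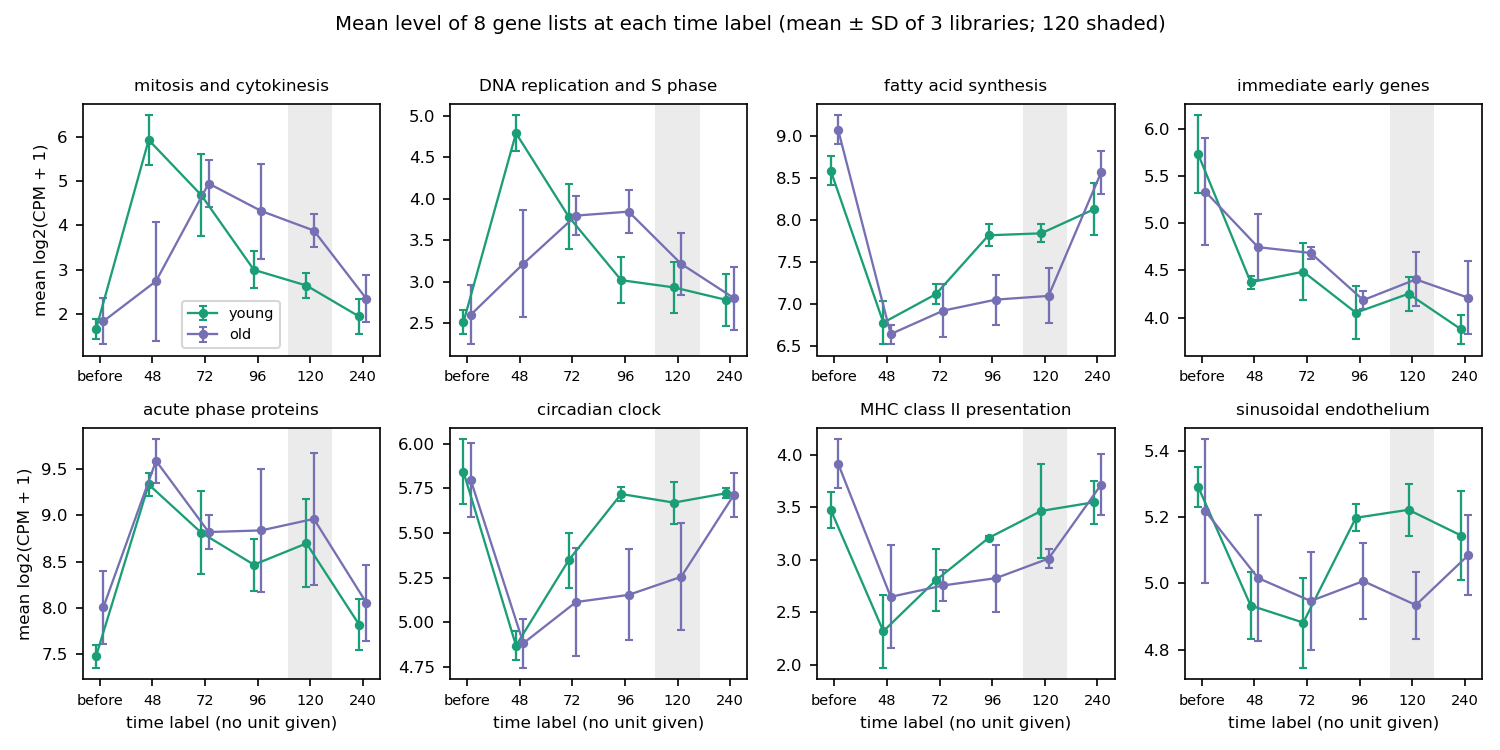
Mean log2(CPM + 1) of 8 gene lists at each time label, evenly spaced, for young and old liver, as mean ± SD of 3 libraries with the label 120 shaded. In old liver at 120 the mitosis score was 3.88 ± 0.37 against 1.83 ± 0.52 before, and the fatty acid synthesis score 7.09 ± 0.33 against 9.07 ± 0.17.

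Levels at the other labels place 120 in the course. The mitosis score averages log2(CPM + 1) across its 50 genes (SD, n = 3 libraries each). In old liver it stood at 3.88 ± 0.37 at 120, below the 4.95 ± 0.54 at 72 and within the spread of the 4.33 ± 1.08 at 96. It was 1.83 ± 0.52 before, 2.74 ± 1.35 at 48 and 2.34 ± 0.53 at 240. In young liver the score at 120 was 2.64 ± 0.27, from 1.65 ± 0.22 before. Of the 248 genes called higher at 120, 166 were also called higher at 96, where 505 of all tested genes (3.76%) were called higher and 412 (3.07%) lower, 917 in all (6.82%), and of the 272 lower, 185 were also called lower at 96, comparisons that share the libraries before. Ly6d averaged 241 CPM at 48, 71.8 at 72, 116 at 96 and 13 at 240 in old liver, around the 80.9 ± 34.3 CPM at 120. Rgs16 averaged 44.0, 29.2 and 31.8 CPM at 48, 72 and 96 and 86.4 CPM at 240, all below the 776 ± 163 CPM before.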

How the data were processed

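Ribosomal-RNA-depleted, DNase-treated total RNA of whole liver was sequenced. The authors deposited read counts per gene symbol for each library, as the files show. The submitters' processing notes name the builds GRCm38 and mm10 and the tools bcl2fastq 2.20.0, Trimmomatic 0.39, FastQC 0.11.9, STAR 2.7.5b, SAMtools 1.10, Picard 2.20.8, deepTools 3.5.0 and featureCounts. The annotation and the use of strand are not given in the sources used here. Per the labels' protocols, ERCC spike-in mix 1 went into young and mix 2 into old samples, but the tables hold 0 ERCC rows. The tables list 21955 symbols, of which 27 look like dates. No pair of libraries was identical. All 36 libraries were fitted together with edgeR 4.0.16 in R 4.3.3 (TMM scaling, filterByExpr over the 12 groups, robust quasi-likelihood F test), leaving 13436 genes. The robust option was chosen in writing the fit. A gene was called at a Benjamini-Hochberg adjusted p under 0.05, and SEs came from the log2 fold change and its F value. The fit was tested on simulated data. A single-gene exact permutation of 3 against 3 cannot go below 0.1, so no such test is given. P-values measure only the spread between the libraries deposited.

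Genes were named by rule: the 8 largest rises and 8 largest falls among called genes with a mean of at least 1 CPM and no overlap, leaving out predicted genes and pseudogenes; up to 4 called members of each list by smallest p, or the member with the smallest p where none was called; whatever their result, Alb, Afp, Ezh2, the arrest genes Cdkn1a and Cdkn2a and the division genes Mcm2, Cdk1, Ccnb1, Mki67 and Top2a; the 4 smallest p for the difference between ages; and the 2 largest changes in each direction at 240. Cdc20, Srebf1, Actg1, Ier5, Col1a1 and Egfr were added after their values were seen. The members and lists were chosen with earlier results of these data known. Alternatives changed the scaling (RLE, total counts), the filter, the libraries in the fit, a replicate block, the depth and the tool (DESeq2 1.42.0), or left out libraries.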

Additional observations from a re-analysis of the deposited data

Results flagged for a closer look

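Ablim3, an actin-binding LIM protein, was the 1 gene whose change at 120 differed between old and young liver by a test of the difference itself. The difference was 1.91 on the log2 scale (SE 0.28, adjusted p = 0.00283 by edgeR's quasi-likelihood test). It rose in old liver from 20.9 ± 2.12 to 46.8 ± 2.86 CPM, higher in 3 of 3 libraries than in any before. In young liver the mean went from 49.5 to 29.3 CPM. The cause was not tested.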

How the results depend on the processing

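Of the 520 genes called at 120 (248 higher, 272 lower), all that were tested kept their direction under each of 20 alternatives, and the 86 named called genes had no reversal. Of these 86, 17 were called under every alternative. The 520 were chosen in these same libraries, so a kept direction was likely beforehand and adds little support. In the pair of libraries with Y-linked transcripts taken alone, 502 of the 520 genes had the same sign. In the other 4 of the 6 libraries all 520 did. The number of calls moved. It was 343 with no low-count filter (172 lower), 202 in a fit of the 6 libraries (110 higher, 92 lower), 107 in a fit of the 18 old libraries (44 and 63), 957 with only libraries without Y-linked transcripts (484 and 473), 805 with both Y-linked libraries left out (436 higher) and 797 with DESeq2 (418 higher). With 1 library left out it ranged from 87 to 762, from 25 to 397 for higher and from 62 to 365 for lower calls. Genes shared with the 520 numbered 512 with DESeq2, 142 of the 202 and 85 of the 87. Total-count scaling shifted the split to 287 higher and 182 lower, with a median shift of all genes of 0.06.

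For the difference between the ages, 1 gene was called, against 0 in a fit of the 12 libraries, 2 after thinning, 30 without Y-linked libraries, 4 with both such old libraries left out and 4 with DESeq2, and from 1 to 3 with 1 library left out. For 240 against 120, 28 genes were called, against 15 with no filter, 53 with the Y-linked split as a term, 301 without Y-linked libraries, 228 with both left out and 171 with DESeq2, and from 0 to 197 with 1 library left out. With a replicate block that comparison called 68 genes, and old 120 against before 607. Replicate numbers did not pair the old libraries, whose same-number correlations were -0.156, 0.0749 and -0.167, so the block is given only here.

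The direction of Alb turned to 0.0648 without Y-linked libraries and to 0.0672 with both left out, and that of Afp ranged from -0.11 to 0.33 with 1 library left out. The cause of these movements was not tested, apart from the smaller number of libraries in the fits that drop some. The fit without robust estimation, the 2 old libraries left out together and the young libraries left out in turn were chosen after seeing the data. Genes with few counts are limited by depth: the floor of 3 counts was 0.686 CPM before and 0.84 CPM at 120.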

Other observations

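The gene groups in this paragraph were listed after the values were seen and are descriptions. Of 34 tested genes for entry into the endoplasmic reticulum and N-glycosylation, which serve secreted proteins, 6 were called higher and 0 lower at 120 in old liver, and 31 were above 0 with a median of 0.30, beside -0.05 in young. Mlec, a lectin that reads new glycans, rose from 292, 296 and 254 CPM to 575, 558 and 489 CPM (0.95, SE 0.24, adjusted p = 0.0234 by edgeR). Of 13 genes of pyruvate dehydrogenase and its regulators, 4 were called lower and 1 higher. Pdk1, a kinase that switches the enzyme off, fell from 343, 507 and 698 CPM to 95.5, 92.9 and 118 CPM (-2.33, SE 0.32, adjusted p = 0.000126), and Dlat, a core subunit, from 60.9 ± 2.88 to 30.6 ± 6.08 CPM (-0.98, SE 0.15, adjusted p = 0.000317). Pdp1, a phosphatase that switches the enzyme on, was the 1 called higher (1.14, SE 0.30, adjusted p = 0.0316). Khk, which starts fructose breakdown, fell from 305, 318 and 363 CPM to 129, 104 and 191 CPM (-1.21, SE 0.21, adjusted p = 0.00154), as 1 of 3 called lower among 23 glycolysis and fructose genes. Of 25 endothelial transcription factors and receptors, 6 were called lower and 0 higher, with a median of -0.43, beside 0.02 in young liver. Sox7, a factor of vessel identity, fell from 11.2 ± 2.80 to 4.93 ± 1.87 CPM (-1.18, SE 0.32, adjusted p = 0.0385).

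Egfr stood at 160.4 and 159.9 CPM in old before replicates 2 and 3 and between 438 and 2317 CPM in the other 34 of the 36 libraries, whose median was 1129 CPM. Among libraries without Y-linked transcripts only, its change at 120 in old liver was 2.77 (SE 0.40, adjusted p = 0.000884 by edgeR), against 0.69 (SE 0.61, adjusted p = 0.588) with all libraries. The difference from young liver in that fit was 2.55 (SE 0.54, adjusted p = 0.0622). Egfr was chosen after these values were seen, and that fit drops old before replicate 1, the library before with the high value. Its small p therefore adds no support. Without old before replicate 2 or 3 the change was 0.22 and 0.24 (adjusted p = 0.909 and 0.913 by edgeR).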
